A study of Mus musculus with 30 samples.

Results

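The genes described here encode the nuclear part of the oxidative phosphorylation machinery, measured in liver. They were taken by symbol: every probe set whose gene symbol begins with Ndufa, Ndufb, Ndufc, Ndufs, Ndufv, Sdha to Sdhd, Uqcr, Cox4i, Cox5, Cox6, Cox7, Cox8 or Atp5. This gave 97 genes, 1 probe set each, of 22206 probe sets tested. Of these, 85 are subunits: 36 of complex I, 4 of complex II, 8 of complex III, 20 of complex IV and 17 of complex V. The other 12 are assembly factors (the Ndufaf and Sdhaf genes), which share the prefixes but are not part of the finished enzymes, and they are given as a class of their own. Ndufa4, Ndufa4l2 and Cox7a2l were placed with complex IV, since the first is a subunit of that enzyme in spite of its name, the second is its relative and the third joins complexes III and IV. None of the 13 mitochondrially encoded subunits carries a symbol in the array annotation used, and these were not analysed here.

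Liver RNA came from C57/BL6J offspring aged 16 weeks, 1 array per animal on 30 arrays. Their dams were artificially inseminated with sperm of a male on a normal or a low protein diet and then housed with a vasectomised male, on either diet, that supplied the seminal plasma. In the group names, the sperm donor's diet comes first and that of the seminal plasma donor second: NN (3 females, 4 males), LL (5 females, 4 males), NL (3 females, 4 males) and LN (3 females, 4 males). The labels name no genetic change, and all dams and offspring received standard chow, so the groups are told apart by the diets of the males. The labels give no litters, and the study's methods describe pairs of a male and a female with a litter of their own, so brother and sister may both be present in a group. The comparisons ask whether the diet behind the sperm, the seminal plasma or both was followed by a different expression of these genes in the adult liver.

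Oxidative phosphorylation is carried out by 5 enzymes of the inner mitochondrial membrane. Complex I takes electrons from NADH and complex II, which is also an enzyme of the TCA cycle, takes them from succinate. Complex III hands them to cytochrome c and complex IV to oxygen, while complex V uses the proton gradient to make ATP. Hepatocytes are rich in mitochondria, which pay for glucose output and urea synthesis, and some complex IV subunits exist in a general form and in a form typical of muscle.

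Hepatocyte markers were at the top of the scale: Alb (albumin) had a log2 signal of 13.36 to 13.57 over the 30 arrays. NL replicate 6, labelled male, stood apart: the mean of its hybridisation controls was 7.61, where the other 29 arrays had 10.14 to 10.95, and that of its GC-rich background probes 8.89, where they had 6.50 to 7.23. Counts and medians of the 97 genes are therefore given with and without it, and values of single genes without it unless stated. On LL replicate 1, labelled female, the Y-linked gene Eif2s3y was at 6.56. That lay between the other 13 females (2.53 to 3.30) and the males other than NL replicate 6 (7.76 to 8.87). The comparison of the sexes was repeated without LL replicate 1 for the 97 genes. On NL replicate 6 Eif2s3y was at 3.24, within the range of those females. Its Kdm5d (3.52) and Uty (2.41) were also below all other males (from 5.33 and 5.63). NL replicate 6 was counted as male, as labelled, and whether the label holds was not tested. Skeletal muscle genes were raised on NN replicate 3, LL replicate 2 and LN replicate 1, which touches 3 complex IV genes described below. In bulk liver, fewer cells of a type and less RNA per cell cannot be told apart.

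Apart from NL replicate 6 these genes varied little between arrays. The mean log2 signal of the 97 genes lay between 8.61 and 8.89 on 28 arrays, at 8.40 on NL replicate 4 and at 7.16 on NL replicate 6. The spread between animals of 1 group, as a standard deviation (SD) on the log2 scale without NL replicate 6, had a median of 0.20 over the 97 genes and 0.25 over all probe sets tested. These sets differ in level: 49 of the 97 genes but 1792 of the 22206 probe sets had a mean of 9 or more. The spread was not compared at like level. Complex V varied least (median 0.17), and the catalytic beta subunit of ATP synthase, Atp5b, least of all the members (0.09). Cox6a2 of complex IV varied most (0.68). The signals of Atp5b show how narrow the range was: NN ran from 11.65 to 11.86 with a median of 11.71, LL from 11.65 to 11.90 with a median of 11.71, LN from 11.61 to 11.79 with a median of 11.71, and NL without replicate 6 from 11.59 to 11.97 with a median of 11.82. These 4 groups overlapped throughout.

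**Figure D1:**
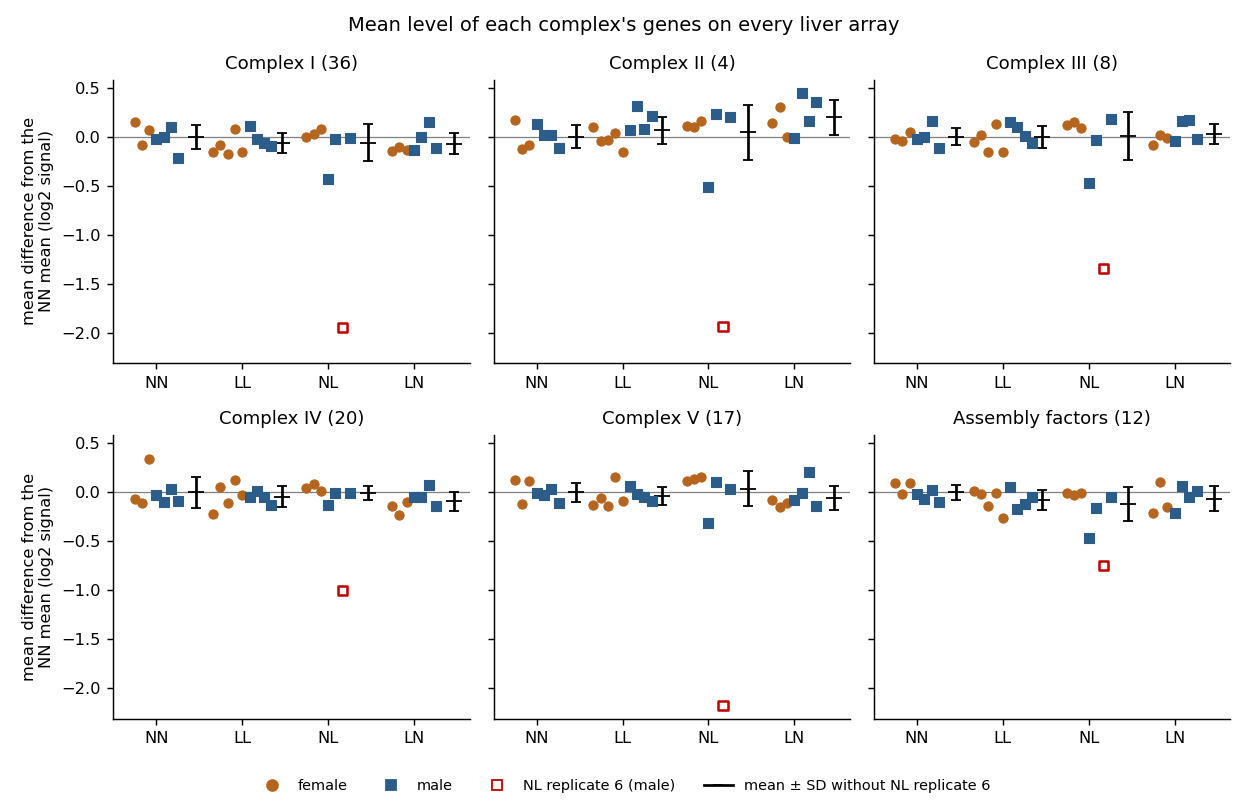
Mean log2 difference of the genes of each complex from their NN mean, 1 point per array (circles female, squares male), with the mean ± SD of each group without NL replicate 6. NL replicate 6 (open square) lies at -1.94 for complex I and -2.18 for complex V, while all other arrays stay between -0.51 and 0.45 in every panel.

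On NL replicate 6 the genes did not move as 1 block, and the direction went with the level of the gene. Of 49 members with a mean level of 9 or more on the other arrays, 49 were below the mean of the other 6 NL arrays, with a median difference of -2.48. Over the 1792 probe sets tested in that range the median was -2.42, and 96.9% were lower. Between 7 and 9, 24 of 29 members were lower (median -1.69, against -1.33 over all probe sets there). Between 5 and 7, only 4 of 14 members were lower and the median was 0.59, and under 5 it was 1 of 5 with a median of 0.88, against 0.43 and 0.81 over all probe sets in those ranges. The mean shift from NN was -1.94 for complex I, -1.93 for complex II, -1.34 for complex III, -0.998 for complex IV, -2.18 for complex V and -0.75 for the assembly factors. In each range of level the sign of the members' median was that of all probe sets.

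**Figure D2:**
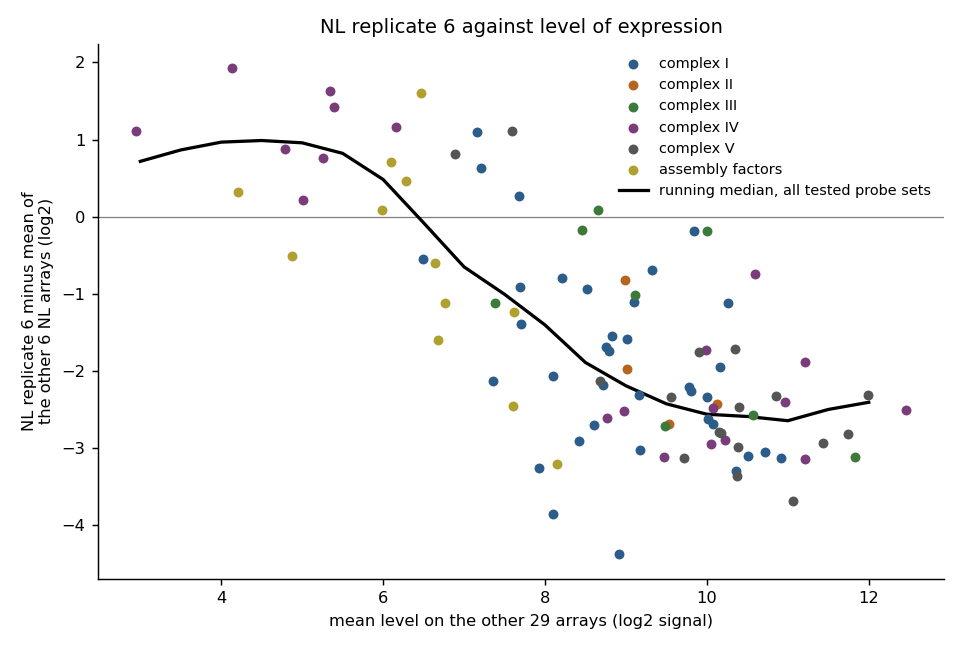
Difference of NL replicate 6 from the mean of the other 6 NL arrays (vertical axis, log2) against the mean level on the 29 other arrays (horizontal axis, log2 signal), 1 point per gene, with the running median of all 22206 probe sets as a line. Genes with a level of 9 or more all lie below 0, and 4 of the 5 genes under 5 lie above it.

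LL offspring, with low protein diet behind both sperm and seminal plasma, had oxidative phosphorylation genes close to those of NN offspring. No member passed an adjusted p of 0.05 (Benjamini-Hochberg over all probe sets tested), as was so for 0% of all probe sets. At an unadjusted p under 0.05 there was 1 member, Sdhaf3 (higher), against 3.39% of all probe sets, and 2 without NL replicate 6 (Sdhaf3 higher, Ndufa6 lower) against 8.43%. The median difference of the 97 genes was -0.03 on the log2 scale, against 0.01 over all probe sets. The 95% confidence interval lay within 1.5-fold in either direction for 72 of the 97 genes and 77.9% of all probe sets, and, without NL replicate 6, for 94 genes and 90.6%. Sdhaf3, an assembly factor of complex II, ran from 5.70 to 6.26 in NN (median 6.01) and from 5.85 to 6.49 in LL (median 6.28), so the groups overlapped, and differed by 0.25 ± 0.09 (log2, standard error, SE, without NL replicate 6, adjusted p = 0.458). Ndufaf5, an assembly factor of complex I, differed by -0.31 ± 0.16 (adjusted p = 0.602) and Sdha by 0.18 ± 0.12 (adjusted p = 0.711). Main subunits of the enzymes differed little: NN and LL means were 10.26 ± 0.06 and 10.27 ± 0.06 (SD, n = 7 and 9) for Ndufv1, which binds FMN and receives electrons from NADH, 9.46 ± 0.10 and 9.42 ± 0.19 for Uqcrc1 of complex III and 11.73 ± 0.07 and 11.72 ± 0.07 for Atp5b.

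NL offspring, with seminal plasma of a low protein male, looked lowered as a whole only while NL replicate 6 was counted. On all 30 arrays 76 of the 97 genes were below NN and the median difference was -0.30, against 0.04 over all probe sets. Complex I had a median of -0.36, complex II of -0.27, complex III of -0.18, complex IV of -0.19 and complex V of -0.33. At an unadjusted p under 0.05, 17 members were lower and 1 higher, against 9.27% and 14.6% of all probe sets, and none passed the adjusted threshold (0.0135% did). When that array was left out the median was -0.01, with 53 genes below NN and 44 above. The medians by complex were then -0.03, 0.08, 0.04, 0.03 and 0.00, and that of the assembly factors was -0.14, with 9 of 12 negative. By array, the mean shift of the assembly factors was -0.46 on NL replicate 4. On the remaining NL arrays other than replicate 6 it lay between -0.158 and -0.005. At an unadjusted p under 0.05, 8 members were lower and 4 higher, against 5.98% and 8.08% of all probe sets, and 1 passed the adjusted threshold, which 0.054% of all probe sets did. Intervals lay within 1.5-fold for 32 genes with the array (47.3% of all probe sets) and for 89 without it (82%).

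**Figure D3:**
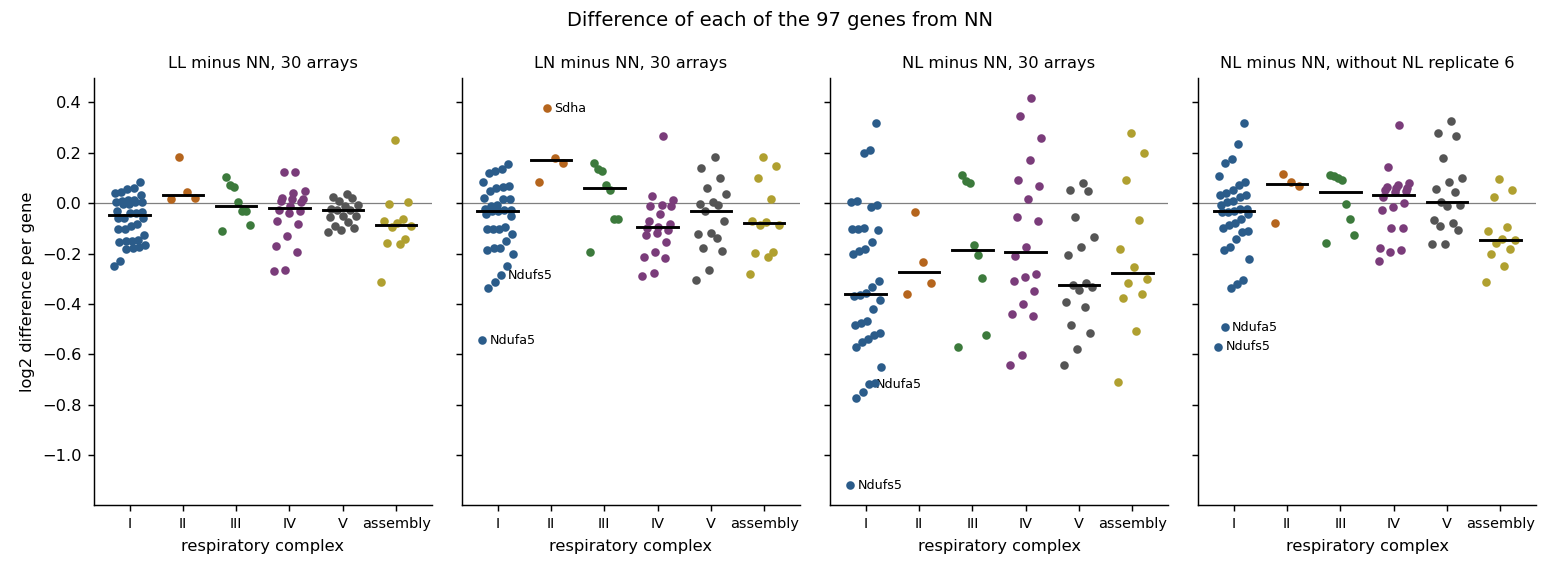
Log2 difference from NN of each of the 97 genes by complex (horizontal axis), 1 point per gene and a bar at the median, for LL, LN and NL with 30 arrays and for NL without NL replicate 6. In NL the medians lie between -0.18 and -0.36 with that array and between -0.14 and 0.08 without it.

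The member past the adjusted threshold was Ndufs5, an accessory subunit of complex I that faces the intermembrane space. Its signals in NN ran from 8.12 to 8.58 with a median of 8.35, and in LL from 7.86 to 8.49 with a median of 8.27. In NL they were 7.35 to 8.00 with a median of 7.74 on 6 arrays, and 3.90 on NL replicate 6. In LN they were 7.92 to 8.10 with a median of 8.07. All NL arrays and all LN arrays therefore lay below all NN arrays, while LL overlapped NN. Ndufs5 was the only member so separated in either comparison. Of all probe sets 0.653% were separated between NL and NN (0.725% without NL replicate 6) and 0.311% between LN and NN. NL and LN were set against the same NN arrays, so their positions below NN are not independent.

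Ndufs5 was lower by 1.48-fold in NL than in NN without NL replicate 6 (log2 difference -0.57 ± 0.10 SE, adjusted p = 0.025). Over all 30 arrays the difference was -1.12 ± 0.36 with an adjusted p of 0.122. In LN it was -0.29 ± 0.10 (adjusted p = 0.270) and in LL -0.10 ± 0.09 (adjusted p = 0.810), both without NL replicate 6. The difference between NL and LN was -0.28 ± 0.10 (adjusted p = 0.638), and -0.83 ± 0.36 with all 30 arrays (adjusted p = 0.339). In females alone NL differed from NN by -0.46 ± 0.15 and in males by -0.67 ± 0.14 (adjusted p = 0.361 and 0.119). When each of the remaining 29 arrays was also left out in turn, the difference stayed between -0.62 and -0.49, and the adjusted p was between 0.0243 and 0.1 and under 0.05 in 23 of 29 fits. It was over 0.05 without NL replicate 2 (0.1), NL replicate 4 (0.0915), NL replicate 5 (0.0552) or NN replicates 3 (0.0524), 4 (0.0534) or 5 (0.0582). Without NL replicate 6 and the 3 arrays with muscle genes it was 0.087, with a difference of -0.56. The hybridisation controls were at 10.57 to 10.94 in NN, 10.33 to 10.71 in NL without replicate 6 and 10.14 to 10.71 in LN, and the part of this in the difference was not tested.

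Ndufa5 and Ndufa6, accessory subunits of the peripheral arm of complex I, also lay low in NL and LN, and Ndufa6 in LL as well. Ndufa5 ran from 8.88 to 9.53 in NN (median 9.29), from 8.81 to 9.41 in LL (median 9.12), from 8.28 to 9.05 in NL without replicate 6 (median 8.88) and from 8.50 to 8.98 in LN (median 8.74). Only the lowest NN array fell within the range of NL and LN. The difference without NL replicate 6 was -0.49 ± 0.12 in NL (adjusted p = 0.079) and -0.54 ± 0.11 in LN (adjusted p = 0.081), so neither passed the threshold. With all 30 arrays the NL difference of Ndufa5 was -0.72 (adjusted p = 0.098) and that of Ndufa6 -0.65 (adjusted p = 0.133). Ndufa6, which carries the acyl carrier protein of the complex, ran from 9.15 to 9.59 in NN (median 9.38), from 8.86 to 9.29 in NL without replicate 6 (median 9.09), from 8.79 to 9.30 in LN (median 9.04) and from 8.91 to 9.26 in LL (median 9.18). It differed by -0.32 ± 0.09 in NL (adjusted p = 0.142), by -0.34 ± 0.09 in LN (adjusted p = 0.169) and by -0.23 ± 0.09 in LL (adjusted p = 0.471). Of the other members lower in NL at an unadjusted p under 0.05, Ndufs4 differed by -0.34, Ndufa1 by -0.31, the assembly factor Ndufaf2 by -0.31, Cox7b2 by -0.23 and Cox5a by -0.20. Atp5d (0.33), Ndufa4l2 (0.31) and 2 complex I subunits were higher at that level. Ndufs8, an iron-sulfur subunit of the core, differed by 0.32 ± 0.10 in NL (adjusted p = 0.172) and Ndufa13 by 0.24 ± 0.10 (adjusted p = 0.274), while Ndufs1 had means of 8.74 in NN and 8.56 in NL without replicate 6. The value of Ndufs8 over all 30 arrays was 0.00.

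**Figure D4:**
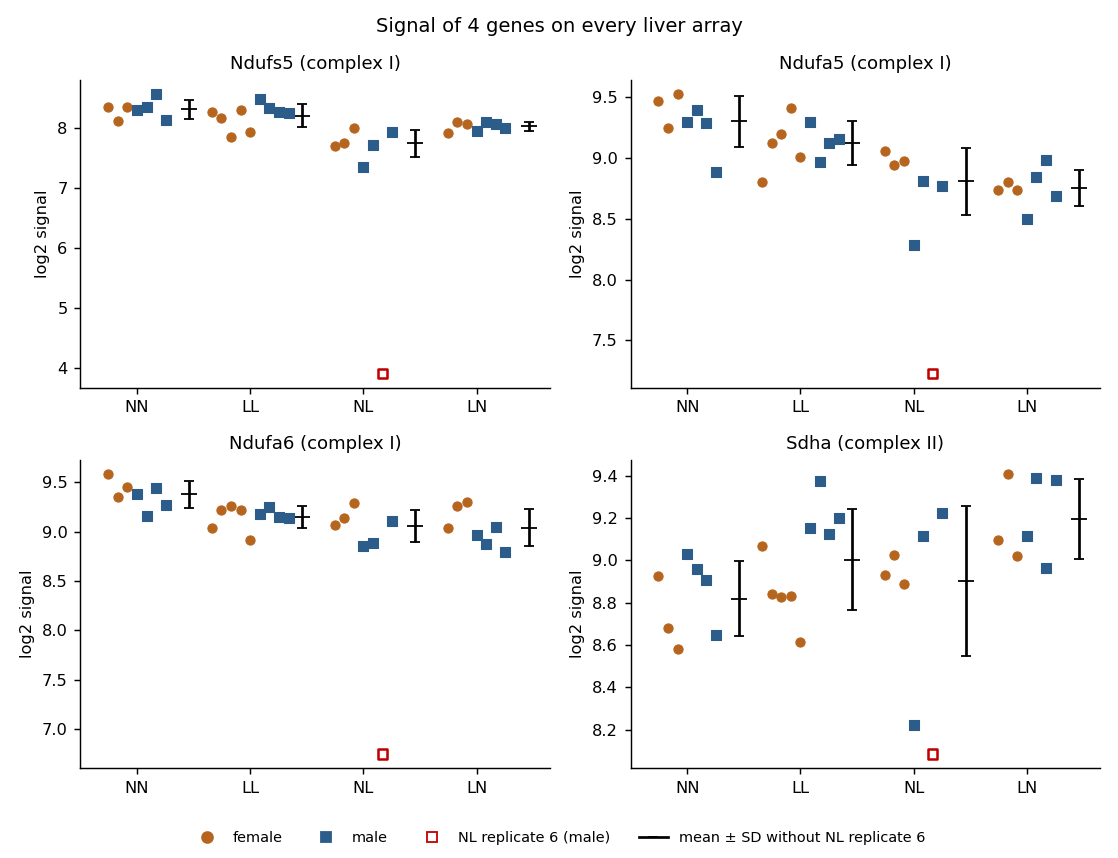
Log2 signal of Ndufs5, Ndufa5, Ndufa6 and Sdha on every array by group (circles female, squares male), with the mean ± SD of each group without NL replicate 6 (open square). For Ndufs5 all NL and LN arrays lie below all NN arrays, whose lowest value is 8.12. For Sdha the LN arrays reach from 8.96 to 9.41 and NN from 8.58 to 9.03.

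No member other than Ndufs5 passed the threshold in NL or LN, so no core subunit of any complex did. Atp5a1, the alpha subunit of ATP synthase, differed by 0.00 ± 0.08 in NL and 0.04 ± 0.07 in LN (SE, without NL replicate 6), and Uqcrfs1, the Rieske iron-sulfur protein of complex III, by -0.06 ± 0.11 and 0.13 ± 0.11. In complex IV, Cox5a differed by -0.20 ± 0.09 in NL and -0.16 ± 0.09 in LN, and Cox4i1 by -0.18 ± 0.11 and -0.21 ± 0.10, with adjusted p between 0.348 and 0.527 for these 4 values. Cox5a ran from 9.33 to 9.69 in NN, from 8.89 to 9.51 in NL without replicate 6 and from 9.22 to 9.58 in LN, and all these ranges overlapped.

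The promoters of Ndufs5, Ndufa5 and Ndufa6 are shown because these complex I genes were below NN at an unadjusted p under 0.05 in both NL and LN without NL replicate 6, though only Ndufs5 in NL passed the adjusted threshold and Ndufa6 was also low in LL. Each window covers 250 bases before and 50 after the start of the gene, is read 5′ to 3′ on the strand of the gene, and comes from RefSeq (GRCm38.p6). Capitals mark a match to the binding motif of NRF1 (nuclear respiratory factor 1), searched by its core letters CGCNTGCG on both strands, N being any base.
Ndufs5: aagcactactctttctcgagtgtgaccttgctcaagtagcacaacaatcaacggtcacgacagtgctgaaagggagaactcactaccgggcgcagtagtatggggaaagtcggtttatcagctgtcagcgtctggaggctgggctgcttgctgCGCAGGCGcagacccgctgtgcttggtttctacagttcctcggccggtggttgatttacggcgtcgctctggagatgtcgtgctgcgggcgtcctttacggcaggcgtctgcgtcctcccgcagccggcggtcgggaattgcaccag
Ndufa5: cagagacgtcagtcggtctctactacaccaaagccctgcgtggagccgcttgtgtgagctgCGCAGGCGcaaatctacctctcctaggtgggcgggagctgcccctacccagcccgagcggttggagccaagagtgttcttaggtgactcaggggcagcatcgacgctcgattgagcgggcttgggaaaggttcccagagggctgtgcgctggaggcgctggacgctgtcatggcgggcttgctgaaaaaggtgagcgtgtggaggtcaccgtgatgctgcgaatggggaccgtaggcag
Ndufa6: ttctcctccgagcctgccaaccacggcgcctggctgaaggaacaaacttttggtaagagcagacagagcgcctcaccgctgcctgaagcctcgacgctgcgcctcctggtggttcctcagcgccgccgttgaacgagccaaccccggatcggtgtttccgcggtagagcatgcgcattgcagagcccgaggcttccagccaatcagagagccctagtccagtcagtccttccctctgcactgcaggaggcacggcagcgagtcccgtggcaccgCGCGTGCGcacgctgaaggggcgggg
The windows lie at chr4:123718137-123718436 (Ndufs5), chr6:24527477-24527776 (Ndufa5, where a second window from another start holds the same match at position -25) and chr15:82354242-82354541 (Ndufa6), all on the minus strand. Counted from the start of the gene, the match begins at position -97 in Ndufs5, -189 in Ndufa5 and 25 in Ndufa6. Of the 97 genes, 81 have a window in this table. The NRF1 core was in those of 31, or 38.3%, and in those of 12.5% of 17492 protein-coding genes. By complex the share was 30.3% for complex I, 66.7% for complex II (2 of 3 genes), 60% for complex III (3 of 5), 7.14% for complex IV (1 of 14), 66.7% for complex V (10 of 15) and 45.5% for the assembly factors (5 of 11). An ETS motif (CCGGAAG, read by GABP among others) was in 27.2% of the members' windows and 12.9% of all, and a YY1 motif (AAGATGGC) in 13.6% and 3.57%. No motif searched contains another, and a match is a description of the sequence only.

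LN offspring, with sperm of a low protein male, differed from NN by a median of -0.04 over the 97 genes, against 0.02 over all probe sets. At an unadjusted p under 0.05, 2 members were lower and 1 higher, against 2.09% and 2.56% of all probe sets, and none passed the adjusted threshold (0% did). Leaving out NL replicate 6 gave 10 lower and 1 higher, against 4.69% and 6.87%, and again none passed the adjusted threshold, which 0.0405% of all probe sets did. The 10 were Ndufa5, Ndufa6, Ndufs5 and Ndufb10 of complex I, the assembly factor Ndufaf8, Cox4i1, Cox7b2 and Cox8a of complex IV and Atp5h and Atp5mpl of complex V. Their differences lay between -0.54 and -0.19. Cox7b2 was dim, with the lowest mean signal of the 97 genes (2.95 without NL replicate 6). Intervals lay within 1.5-fold for 54 of the 97 genes (70.7% of all probe sets), and without NL replicate 6 for 93 (86.6%). Of the 20 genes of complex IV, 17 were below NN, with a median of -0.10.

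Complex II was the only complex with a positive median in all 3 comparisons without NL replicate 6, at 0.03 in LL, 0.08 in NL and 0.17 in LN (in NL -0.27 with all 30 arrays). It has 4 genes, and in LN all 4 were above NN. Sdha, the flavoprotein that oxidises succinate, ran from 8.58 to 9.03 in NN (median 8.91), from 8.61 to 9.37 in LL (median 9.07), from 8.22 to 9.22 in NL without replicate 6 (median 8.98) and from 8.96 to 9.41 in LN (median 9.12). LN overlapped NN only in the upper part of the NN range. The difference was 0.38 ± 0.13 (1.3-fold), the highest of the 97 genes in LN, and did not pass the threshold (adjusted p = 0.262). Sdhb, the iron-sulfur subunit, had means of 10.04 ± 0.13 in NN and 10.22 ± 0.16 in LN. The membrane anchor Sdhc had 9.00 ± 0.30 and 9.08 ± 0.23, and the other anchor, Sdhd, 9.47 ± 0.14 and 9.63 ± 0.21 (SD, n = 7 in each group). NL replicate 4 was the lowest array for the complex after NL replicate 6, with a mean shift of -0.51.

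NL and LN offspring, which received opposite pairings of sperm and plasma, did not differ in any member at the adjusted threshold (0% of all probe sets did). Leaving out NL replicate 6, 7 members were higher in NL and 2 lower at an unadjusted p under 0.05, against 2.68% and 4.21% of all probe sets. Atp5g1, which encodes the c subunit of the ATP synthase ring, ran from 10.69 to 11.41 in NL without replicate 6 (median 11.22) and from 10.08 to 11.15 in LN (median 10.68), and differed by 0.54 ± 0.14 (adjusted p = 0.522), or by 0.21 ± 0.25 with all 30 arrays. Atp5g2, a second gene for the same subunit, ran from 10.21 to 10.68 (median 10.39) and from 9.71 to 10.81 (median 9.93) and differed by 0.40 ± 0.14 (adjusted p = 0.638), or by 0.00 ± 0.28 with all 30 arrays. Both genes overlapped between the groups. Counting all 30 arrays, 10 members were lower and 1 higher, against 8.53% and 6.09%. Averaged over seminal plasma, low against normal protein sperm left 2 members at an unadjusted p under 0.05 (4.81% of all probe sets) and, without NL replicate 6, 4 (6.52%). Averaged over sperm, low against normal protein seminal plasma left 4 (11%) and, without NL replicate 6, 4 (8.55%). None passed the adjusted threshold (0% of all probe sets). Without that array all 97 intervals lay within 1.5-fold in both averages, as did 97.5% and 97.8% of those of all probe sets, and the medians were -0.03 and -0.01. With NL replicate 6 the medians were 0.08 for sperm and -0.15 for seminal plasma, and 75 and 70 intervals lay within 1.5-fold.

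Within each sex no member passed the adjusted threshold against NN, with or without NL replicate 6. Of all probe sets 0% did, save 0.036% in LN males without that array. In males the comparison of NL with NN rested on that array: 43 members were lower and 3 higher at an unadjusted p under 0.05 with it, against 15.9% and 16.9% of all probe sets, and the median was -0.55. Without it there were 9 lower and 1 higher, against 5.55% and 5.94%, and the median was -0.09. The group then held 3 arrays. Of these, NL replicate 4 was the lowest of the 29 arrays, with a mean shift of the 97 genes of -0.36 and 82 genes below the NN mean. Its hybridisation controls (10.54) and background probes (7.00) were in the range of the others. Over all probe sets, its upper minus lower quartile was 3.16, below the 28 other arrays (3.23 to 3.52). Its median over all probe sets was 5.569, above theirs (5.419 to 5.545). NL replicate 6 had 2.29 and 5.646 for these. Whether the quality of NL replicate 4 had a part in its shift was not tested. NL replicates 5 and 7 had mean shifts of -0.01 and 0.02. LL males had no member at an unadjusted p under 0.05 (1.93% of all probe sets, and 5.03% without NL replicate 6), and LN males had 2 (4.72%) and, without NL replicate 6, 6 (12.1%). In females the medians were -0.09 for LL, 0.04 for NL and -0.13 for LN. With all 30 arrays 2 members were past an unadjusted p of 0.05 in LL females (4.3% of all probe sets), 0 in NL females (3.38%) and 2 in LN females (2.96%). When NL replicate 6 no longer entered the shared estimate of spread, 12 members were lower and 1 higher in LN females, against 3.73% and 4.29% of all probe sets, in LL females 10 and 1, against 4.91% and 6.43%, and NL females had 7 members (9.53%). The difference between the sexes in these effects was tested as such, and none of the 97 genes passed an adjusted p of 0.05 in any of the 3 comparisons. At an unadjusted p under 0.05 there were 0 members for LL, 4 for NL and 0 for LN, against 2.39%, 6.28% and 2.74% of all probe sets, and without NL replicate 6 there were 6, 4 and 5, against 6.49%, 4.98% and 7.1%.

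Males and females differed in few of these genes. With all 30 arrays none passed the adjusted threshold, which 2.51% of all probe sets did, and 4 had an unadjusted p under 0.05 (13.1% of all probe sets). Leaving out NL replicate 6, 3 were higher in males and 6 lower, against 8.58% and 8.67%, 1 passed the adjusted threshold (5.65%), and 95 intervals lay within 1.5-fold (94.8%). The gene past the adjusted threshold was Sdhaf4, which helps to assemble complex II around its flavinated subunit. Its signal was low, and it is among the 5 of 97 genes that a filter on dim probe sets removed. In females it ran from 4.08 to 4.69 with a median of 4.33, and in males without NL replicate 6 from 3.59 to 4.49 with a median of 4.12, so the sexes overlapped, with means of 4.35 ± 0.19 (SD, n = 14) and 4.06 ± 0.24 (n = 15). The difference, averaged over the groups, was -0.31 ± 0.08 (males minus females, adjusted p = 0.025), and -0.27 with an adjusted p of 0.149 on all 30 arrays. The mean of males was below that of females in all 4 groups. Without LL replicate 1 as well the adjusted p was 0.028. When each of the other 29 arrays was left out in turn it was between 0.0119 and 0.068, and over 0.05 without LN replicate 3 (0.0504), NN replicate 2 (0.0546), NL replicate 5 (0.0645) or NL replicate 3 (0.068). Cox8a, the general form of the smallest complex IV subunit, ran from 9.87 to 10.76 in females and from 10.32 to 11.16 in males and differed by 0.27 ± 0.09 (adjusted p = 0.064). Ndufab1, the acyl carrier protein bound by complex I, ran from 8.69 to 9.43 and from 8.53 to 9.12 and differed by -0.21 ± 0.07 (adjusted p = 0.066). Atp5d, the delta subunit of ATP synthase, differed by 0.23 ± 0.09 (adjusted p = 0.156). With all 30 arrays these 3 differences were 0.21 (Cox8a, adjusted p = 0.375), -0.48 (Ndufab1, adjusted p = 0.462) and 0.12 (Atp5d, adjusted p = 0.741).

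The muscle-type subunits of complex IV followed single arrays rather than groups. Cox6a2 was at 8.94 on NN replicate 3, 7.19 on LL replicate 2, 6.77 on LN replicate 1 and 7.32 on NL replicate 6, and between 5.52 and 6.61 on the other 26 arrays. Cox7a1 was at 6.14 on NN replicate 3 and 5.42 on LL replicate 2, against 4.44 to 5.29 on those 26 arrays, and Cox8b at 5.99 and 4.81, against 3.45 to 4.72. On LN replicate 1 both were within that range (4.99 and 4.06). All 4 skeletal muscle markers measured were raised on NN replicate 3 and LL replicate 2: Acta1 (skeletal actin) was at 11.02 and 9.46, Mb (myoglobin) at 9.50 and 8.54, Tnnt3 (troponin T) at 9.98 and 8.14 and Ckm (creatine kinase) at 6.70 and 6.42. On LN replicate 1 Acta1 was at 7.92, Mb at 7.55 and Tnnt3 at 6.87, while Ckm (5.79) was within the range of the others. The 26 other arrays had at most 4.96 for Acta1, 6.74 for Mb, 4.35 for Tnnt3 and 5.91 for Ckm. The mean of the 4 markers was 9.30, 8.14 and 7.03 on the 3 arrays and 4.68 to 5.30 on the 26. NL replicate 6 was also above the 26, with a mean of 6.42, Acta1 at 6.36, Mb at 7.32, Tnnt3 at 4.96 and Ckm at 7.04, the highest of all arrays for Ckm. On that array dim probe sets were raised in general. Against the other NL arrays the median over all probe sets was 0.81 under a level of 5 and 0.43 between 5 and 7. Whether muscle RNA had a part in its values was not tested.

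In LL against NN females, Cox7a1 differed by -0.58 ± 0.20 without NL replicate 6 (adjusted p = 0.312), the lowest value of the 97 genes there. Without the 3 arrays with muscle genes, a choice made after seeing the data, it differed by -0.35 ± 0.15 (adjusted p = 0.477). Cox6a2 differed by -0.56 ± 0.44 with these arrays and by 0.29 ± 0.22 without them, and Cox8b by -0.44 ± 0.29 and 0.07 ± 0.20, so both changed direction. None of these values passed the threshold. NN replicate 3 also gave complex IV its highest mean shift (0.34). The other isoforms typical of other tissues were at low signals without NL replicate 6: Cox4i2, a form known from lung, at 4.79 to 5.88, Cox6b2 and Cox8c, known from testis, at 4.27 to 5.69 and 4.80 to 6.15, and Ndufa4l2, known from cells short of oxygen, at 4.81 to 5.92. Cox4i2 differed by 0.27 ± 0.14 in LN (adjusted p = 0.451).

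**Figure D5:**
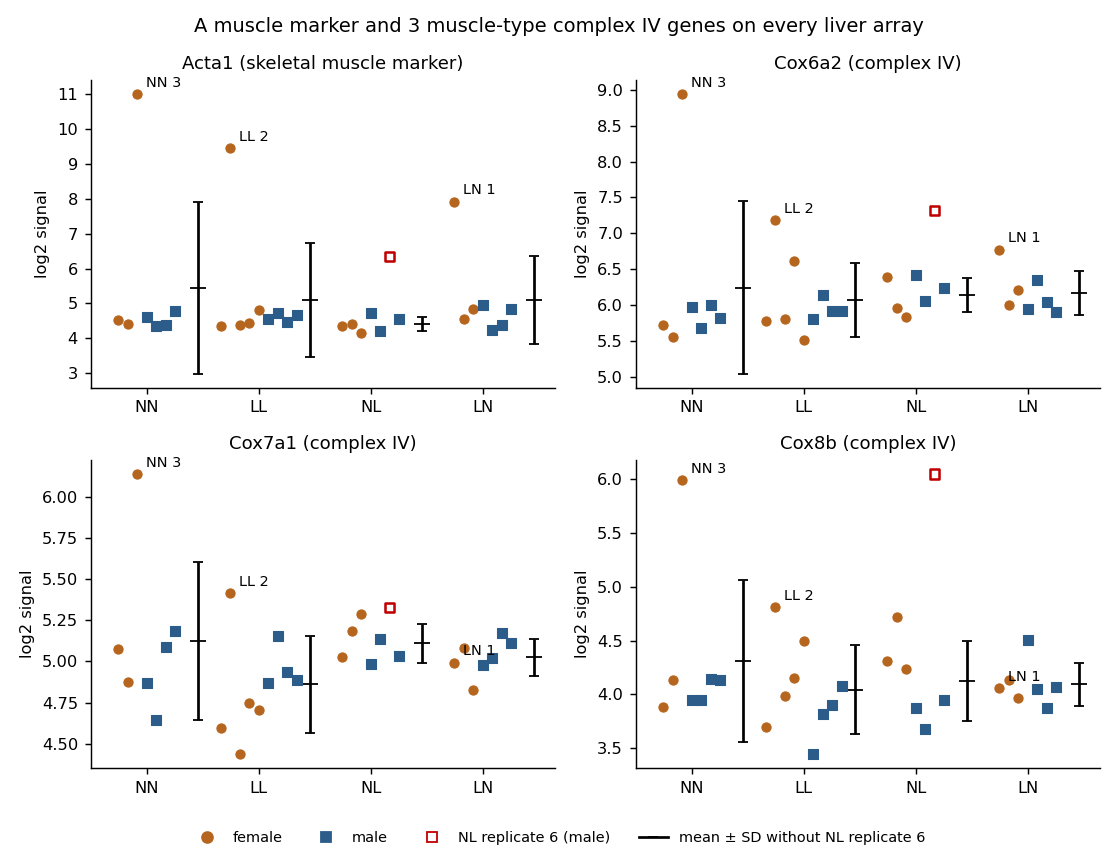
Log2 signal of the muscle marker Acta1 and of 3 muscle-type complex IV genes on every array by group (circles female, squares male), with the mean ± SD of each group without NL replicate 6 (open square). NN replicate 3 is the highest array for Acta1 (11.02), Cox6a2 (8.94) and Cox7a1 (6.14), and LL replicate 2 follows it for Acta1 (9.46).

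Genes around the respiratory chain were counted as lists. No gene of any list passed the adjusted threshold in LL, NL or LN, with or without NL replicate 6. Counts and medians are without that array unless stated. Of 14 regulators of mitochondrial genes 13 were measured, and in NL 4 were lower at an unadjusted p under 0.05 and none higher, against 5.98% and 8.08% of all probe sets, with a median of -0.22 against 0.01 over all probe sets. With all 30 arrays 7 were lower (9.27% of all probe sets) and the median was -0.44. The 4 were Gabpa (-0.41, adjusted p = 0.141), a subunit of GABP, Polrmt (-0.41, adjusted p = 0.156), the mitochondrial RNA polymerase, Tfam (-0.48, adjusted p = 0.26), which packages mitochondrial DNA, and Nrf1 (-0.30, adjusted p = 0.334). In LN 3 were lower and 1 higher, against 4.69% and 6.87% of all probe sets (median -0.21), and Ppargc1a, a coactivator of these factors, differed by -0.54 (adjusted p = 0.404). In LL 2 were lower, where 8.43% of all probe sets passed in either direction (median -0.11). Of 12 TCA cycle genes measured, 1 was higher and 1 lower in NL (median 0.00), 2 and 1 in LN (0.10) and none in LL (-0.06). The 16 genes of ubiquinone synthesis, cytochrome c and electron entry had medians of 0.02 in LL, -0.05 in NL and -0.04 in LN. At an unadjusted p under 0.05, 4 of them were higher and 1 lower in LN, 1 and 1 in NL, and 1 and 0 in LL. The 38 assembly factors of a wider list, which takes in the 4 Sdhaf members, had medians of -0.07, -0.03 and 0.03. Of these 5 were higher and 0 lower in LN, 1 and 1 in NL, and 3 and 4 in LL. The 10 genes listed as carriers and uncouplers, Atpif1 among them, had medians of -0.04, -0.13 and -0.08. Here 1 was higher and 0 lower in LN, 1 and 1 in NL, and none in LL. The shares of all probe sets are those given for the regulators. Slc25a5, an ADP/ATP carrier, differed by 0.28 in LN (adjusted p = 0.174) and 0.22 in NL (adjusted p = 0.209). On all 30 arrays the NL medians were -0.30 for the TCA cycle, -0.36 for ubiquinone synthesis, cytochrome c and electron entry, -0.14 for the assembly factors and -0.25 for the carriers and uncouplers.

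Between the sexes some genes of these lists passed the adjusted threshold, as did 5.65% of all probe sets without NL replicate 6 and 2.51% with all 30 arrays. Without that array they were 1 of 13 regulators, 1 of 16 genes of ubiquinone synthesis, cytochrome c and electron entry, 4 of 38 assembly factors (Sdhaf4 among them), 1 of 12 TCA cycle genes and 1 of 10 genes listed as carriers and uncouplers. With all 30 arrays they were 1 regulator, 1 assembly factor and 1 gene of that last list. Ppargc1a was lower in males, with a log2 difference of -0.71 ± 0.11 (adjusted p = 7e-05) and of -0.83 ± 0.16 with all 30 arrays (adjusted p = 0.0021), the only one of the 13 regulators past the threshold. The gene from the list of carriers and uncouplers was Atpif1, which is neither and encodes the inhibitor of the ATP hydrolysis of complex V. Atpif1 differed by -0.36 ± 0.10 (adjusted p = 0.025, and 0.045 with all 30 arrays). Foxred1, an assembly factor of complex I, differed by 0.38 ± 0.09 (adjusted p = 0.0059, and 0.028 with all 30 arrays). Without NL replicate 6 alone, Coq7 of ubiquinone synthesis (0.49 ± 0.09, adjusted p = 6e-04), the complex IV assembly factors Cox19 (0.38 ± 0.08, adjusted p = 0.0023) and Cox18 (0.28 ± 0.07, adjusted p = 0.021) and Idh3a of the TCA cycle (-0.29 ± 0.08, adjusted p = 0.038) also passed it.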

How the data were processed

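Liver RNA of 30 offspring was hybridised to 1-colour Clariom S mouse arrays. The authors deposited log2 signals, 1 per probe set and array, made in Partek Genomics Suite. Their background correction and normalization are not given in the sources used here. Leaving out 6923 controls of 29129 probe sets left 22206 to test, of which 19572 carry a single symbol in the platform annotation, and no filter on signal was applied. All 97 symbols matched those in the RefSeq annotation used, which keeps names such as Atp5a1 (also Atp5f1a) and Atp5b (also Atp5f1b). Near-identical copies such as Ndufb4 and Ndufb4b may share signal.

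Differences came from limma 3.58.1 (R 4.3.3, tables read by data.table in version 1.17.8), in a model of 4 groups for both sexes and in one of 8 groups of diet and sex, on 30 arrays and again on 29 without NL replicate 6. Two-sided moderated tests were adjusted by Benjamini-Hochberg over all 22206 probe sets. P-values measure the spread between animals, and the number of arrays limits the precision. Named genes were core or other main subunits, isoforms of other tissues, the 2 higher and 2 lower members with the smallest p per comparison, and those past the threshold. Other names, such as the members listed for LN, the pathway genes and Sdhc and Sdhd, were chosen after their values were seen. The members and lists were chosen with earlier results of these data known.

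Alternatives were quantile normalization, centring, removal of dim probe sets, array weights, a block for the replicate number, a term for sex, the methods' analysis of variance and leaving out arrays. The procedure was tested on simulated data.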

Additional observations from a re-analysis of the deposited data

Results flagged for a closer look

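Within each group, 144 sets of values (30 genes and the mean shifts of the complexes) were examined for 1 array far from the rest, and 36 had one, of which 25 were NL replicate 6. For a single set chance alone gives about 1 in 20. The sets share arrays and genes and are not independent, so the 36 were not tested against that share.

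On NL replicate 6 the mean shifts from NN were -1.94 for complex I (next array -0.435), -1.93 for complex II (-0.512), -1.34 for complex III (-0.47), -0.998 for complex IV (-0.132) and -2.18 for complex V (-0.311). Far below the other NL arrays were Ndufs5 at 3.9 log2 signal, Ndufab1 at 4.55, Cox5a at 6.23, Ndufs1 at 6.38, Ndufa6 at 6.75, Uqcrc1 at 6.84, Cox4i1 at 7.03, Ndufa5 at 7.23, Atp5g2 at 7.62, Sdhb at 7.73 and Ndufs8 at 7.77. So were Atp5g1 at 8.83, Atp5d at 8.91, Atp5b at 9.00, Ndufv1 at 9.12 and Atp5a1 at 9.67. Far above them were Ndufa4l2 at 6.22, Sdhaf3 at 6.81, Cox4i2 at 6.83 and Cox6a2 at 7.32.

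On NN replicate 3 the mean shift of complex IV was 0.345 (next 0.0386), with Cox6a2 at 8.94 (next 6.01), Cox7a1 at 6.14 (next 5.18) and Cox8b at 5.99 (next 4.14). The muscle markers of this array are given with those genes.

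LN replicate 6 had a mean shift of complex V of 0.203 (next -0.0105), Atp5g2 at 10.8 (next 10.1) and Atp5d at 11.0 (next 10.4). Single genes stood apart on other arrays: Atp5b at 11.9 on LL replicate 4 (next 11.7), Atp5d at 9.86 on NN replicate 2 (next 10.3), Cox8c at 5.74 on NN replicate 5 (next 5.36) and Cox8b at 4.50 on LN replicate 4 (next 4.13).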

How the results depend on the processing

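The count of 0 members past the adjusted threshold in NL against NN became 1 without NL replicate 6 and LL replicate 1 and 1 with array weights (0 to 1 with 1 array left out), and the median of -0.30 became 0.0351 with array weights and 0.0108 without NL replicate 6 and the 3 arrays with muscle genes. In NL against NN males the median of -0.55 became -0.088 without NL replicate 6 and LL replicate 1, -0.088 without the arrays with muscle genes and NL replicate 6, and -0.0501 with array weights, and ran from -0.765 to -0.088 with 1 array left out. The count at the adjusted threshold there was 0 to 53, with 53 without NL replicate 5 and 51 without NL replicate 7. Both of these fits kept NL replicate 6. On that array 96.9% of all probe sets with a level of 9 or more were below the other NL arrays. The share of all probe sets past the threshold in these fits is not given here. The counts are therefore not a result about these genes in particular. The sex difference in NL had a median of -0.61, which became -0.129, -0.169 and -0.108 under the same 3 settings (-0.797 to -0.129 with 1 array left out). Between males and females the count of 0 became 1, 1 and 2 (0 to 1 with 1 array left out). Centring each array on its median turned Ndufs8 in NL against NN to -0.067 (-0.0873 to 0.318 with 1 array left out) and Atp5g2 in NL against LN to -0.0265 (-0.106 to 0.404). In LL against NN females, Cox6a2 turned to 0.287 and Cox8b to 0.0733 without NL replicate 6 and the arrays with muscle genes, and ran from -1.15 to 0.54 and from -0.83 to 0.22 with 1 array left out. In each case the cause was not tested. The labels do not say that a replicate number marks a shared litter or batch. Over 39 same-numbered pairs the deviations correlated at a median of 0.25, with 32 over 0.1 and the lowest at -0.46, and differently numbered pairs at a median of -0.12. Same-numbered arrays were thus more alike at the median, though not in every pair. What they share was not tested, and the main fits did not pair arrays by number. With the replicate block 0 members passed the adjusted threshold in NL against NN, with a median of -0.30, and the block changed no count at that threshold. On all 30 arrays, where no member passed, quantile normalization, the methods' analysis of variance and removal of dim probe sets, which keeps 92 of the 97 genes, left the counts of members at that threshold the same and moved no median by more than the spread between replicates. The same held for sex as a covariate, which was run for the comparisons of both sexes only. Neither these settings nor the replicate block were run without NL replicate 6, where Ndufs5 and Sdhaf4 passed. The spread between replicates used for the medians was 0.30 on 30 arrays and 0.11 without NL replicate 6. Leaving out NL replicate 6 moved the median of NL against NN from -0.30 to -0.01, which was also within 0.30. The limit could therefore miss a shift of that size. Dim genes such as Sdhaf4, 3 to 5 arrays per sex and group, and litters that the labels do not link to arrays limit what could be seen.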
